A study of Mus musculus with 4 samples.

Results

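The gene of fibronectin and those of 4 cell-surface proteins linked to integrins were followed in NIH3T3 cells, an established line of mouse embryonic fibroblasts. The genes were Fn1 (fibronectin), Itgb1 and Itgb5 (integrin beta subunits), Vcam1 (a ligand of integrins on other cells) and Cd151 (a tetraspanin that binds integrins). They were chosen by name, with earlier results of these data known, among 9930 gene symbols on the array. Their probes number 16 of 20355. Of these probes, 15 lay in table rows that could be used and 1 probe of Itgb1 did not. All 5 genes had a value on every array and are among 6327 genes of which this holds.

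RNA of NIH3T3 cells transfected with Erbb2, labelled as overexpressing it, was hybridised against RNA of untransfected NIH3T3 cells, labelled as having normal Erbb2 expression. Erbb2 encodes a receptor tyrosine kinase. There were 4 two-colour arrays, described as technical replicates, and the transfected sample was in Cy5 on arrays 1 and 2 and in Cy3 on arrays 3 and 4. Each line was thus 1 biological sample, and every SD and p-value below covers the spread between arrays only. The sources used here give neither the vector and its promoter nor whether the transfected line was 1 clone. No probe was named for Erbb2, so its level was not analysed here.

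Fibronectin is a large glycoprotein that fibroblasts secrete and assemble into fibrils around themselves. Assembly depends on integrins, receptors made of an alpha and a beta subunit, which bind fibronectin outside the cell and connect to actin inside it through adaptor proteins. The beta 1 subunit pairs with many alpha subunits, among them the alpha 5 chain of the main fibronectin receptor, while the beta 5 subunit pairs with the alpha V chain and binds vitronectin. Loss of the fibronectin coat is a long known mark of transformed fibroblasts.

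Values are log2 ratios, likely of transfected over untransfected cells: -1 then means that the transfected sample had a signal lower by 2-fold. The direction is not stated with the values, and all signs would turn together if it were the opposite. A ratio carries no level, so the fibroblast identity of the lines could not be checked from marker levels, and less RNA per cell cannot be told from fewer expressing cells. Below the first 6000 rows of the table, arrays 2 to 4 appear to have slipped against array 1. The slip was inferred from the values and is stated nowhere in the sources used here. These arrays were read 3 rows higher in the middle part of the table and 4 rows higher in its last part, and 2300 rows at the borders of the parts were left out. The values of lower probes rest on that reading: with all rows as deposited the mean of Fn1 was -3.07. Across the 6327 genes, which are not independent replicates, pairs of arrays correlated weakly (Pearson's r from 0.123 to 0.202, Spearman's coefficient from 0.091 to 0.208). Pairs with the same dye orientation had the highest Pearson's r (0.202 for arrays 1 and 2, 0.196 for arrays 3 and 4). It was 0.123 to 0.149 for pairs of opposite orientation. Array 3 had the widest spread, with a median absolute deviation of 1.04 against 0.649 to 0.898 on the others. In the first 6000 rows, pairs of probes of the same gene had r = 0.00338 on array 3 (317 pairs) and r from 0.148 to 0.314 on the other arrays.

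Fibronectin mRNA had 1 of the lowest ratios of the series. Fn1 had a log2 ratio of -4.38 on array 1, -3.94 on array 2, -3.57 on array 3 and -3.68 on array 4. The 4 arrays lay within 1 unit of each other, and their mean was -3.89 ± 0.36 (SD, n = 4 arrays), a 14.8-fold lower signal in the transfected line. Of the 6327 genes, 5 had a lower mean, and 957 had an SD as small as that of Fn1 or smaller. The mean was -4.16 with the transfected sample in Cy5 and -3.62 in Cy3, so both dye orientations gave the same sign and a similar size. Fn1 ranked 7th from the lowest gene on array 1, 55th on array 2, 93rd on array 3 and 47th on array 4.

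All 20 values of the 5 Fn1 probes were below -1. The probe at row 3995 had -5.44, -4.66, -4.21 and -4.43 on arrays 1 to 4. That at row 1795 had -4.20, -4.89, -5.69 and -3.90, and that at row 1347 had -3.31, -3.29, -2.51 and -3.77. These probes lie in the first rows, where no row was moved, and array 3 was low for each of them at the row that carries the name. The remaining Fn1 probes lie in the lower rows. That at row 19922 had -5.12, -4.61, -4.24 and -4.60, and that at row 18348 had -3.83, -2.24, -1.19 and -1.70. Probe means therefore ran from -4.69 to -2.24, and the SD between probes (1.12) exceeded the median SD of a probe between arrays (0.54). Among these probes that of row 18348 was the nearest to 0, and array 1 was lower there than the other arrays.

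**Figure D1:**
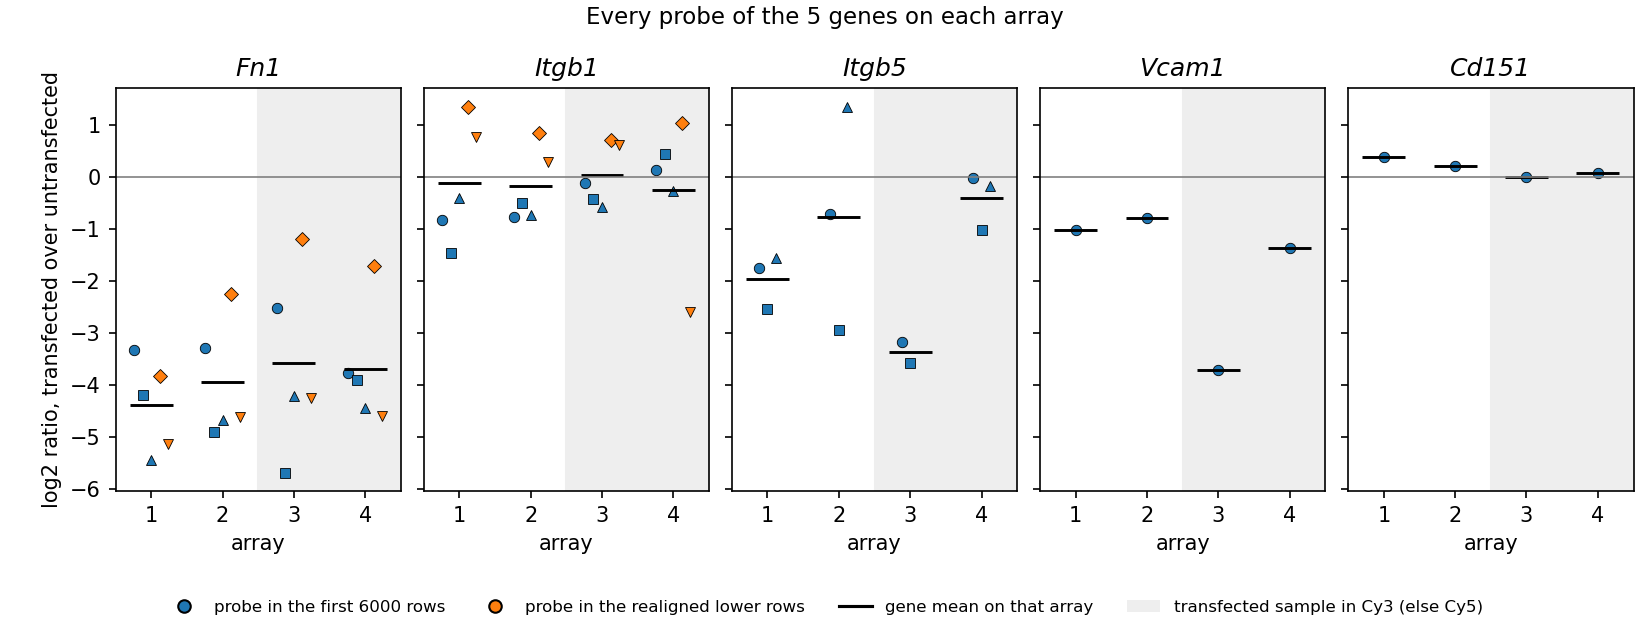
Log2 ratio (vertical axis) of every probe of the 5 genes on arrays 1 to 4 (horizontal axis); each symbol is 1 probe, blue for the first 6000 rows and orange for the realigned lower rows, black bars are the gene's mean on that array, and grey areas mark the arrays with the transfected sample in Cy3. All 20 values of Fn1 lie below -1, Itgb5 and Vcam1 are lowest on array 3, the probes of Itgb1 lie on both sides of 0, and Cd151 stays within 0.40 of it.

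The lower probes differed in how well they fitted the inferred shift. At row 19922 as deposited, arrays 2 to 4 had 0.97, -0.29 and 1.18 while array 1 had -5.12. Read 4 rows higher, the same arrays had -4.61, -4.24 and -4.60, and at all other distances from 1 to 8 rows their mean lay between -0.55 and 0.37. At row 18348 the mean of arrays 2 to 4 was -1.71 at 4 rows and between -0.93 and 0.52 at the others from 0 to 8. The values on array 1, which was not moved, were low at both rows without any shift. Low means also occurred at other distances. At row 1795, in the first rows, the mean of arrays 2 to 4 was -4.83 at its own row. It was -2.85 at 5 rows and -3.83 at 7 rows. The lower Itgb1 probes did not single out the distance used. At row 19297 the mean of arrays 2 to 4 was -0.56 at 4 rows, against 0.77 on array 1, and 0.54 at 6 rows. At row 8763 it was 0.88 at the 3 rows used and 1.22 at 6 rows, against 1.36 on array 1. The distance of 4 rows was set for the whole lower part of the table with these data known, so the values at the Fn1 probes are a description and no support for it.

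**Figure D2:**
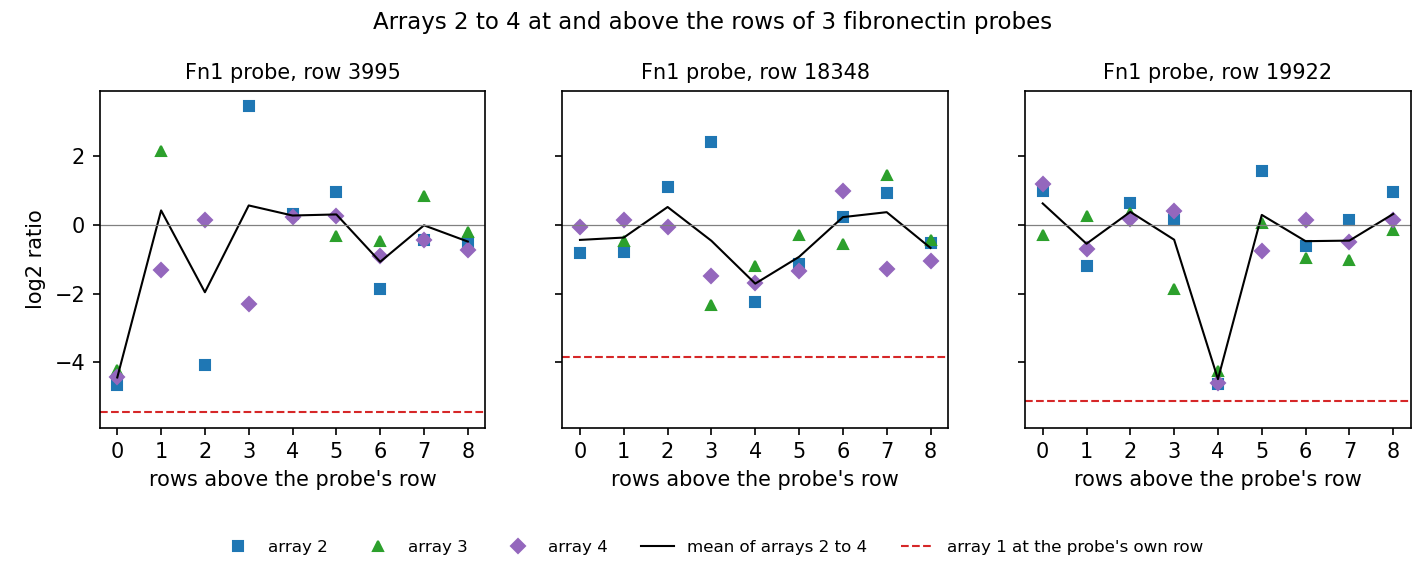
Log2 ratios (vertical axis) of arrays 2 to 4 at a Fn1 probe's own row and up to 8 rows above it (horizontal axis), for 1 probe of the first rows and both probes of the lower rows; symbols are arrays, the black line is their mean and the red dashed line is array 1 at the probe's own row. At row 3995 the low values stand at 0 rows, and at row 19922 they stand at 4 rows, where the mean is -4.48.

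Fn1 did not pass the test over all genes in the main fit. Limma called 0 of 6327 genes at an adjusted p under 0.05 (0% of genes). At an unadjusted p under 0.05 it had 730 genes, of which 474 had a mean below 0 (7.49%) and 256 above 0 (4.05%). The smallest adjusted p, 0.105, was shared by Fn1, Col1a2, Lox, Arhgap31 and Serpina12. For Fn1 the 95% interval of the mean in limma was -4.61 to -3.18. With every probe tested on its own, limma called the Fn1 probes at rows 3995 and 19922 (adjusted p = 0.0226 each over 7603 probes), while those at rows 1795 (0.0704), 1347 (0.093) and 18348 (0.251) did not pass. Fn1 as a gene passed without the dye term (limma, adjusted p = 0.0398) and with the median of its probes in place of the mean (-4.23, limma, adjusted p = 0.0396). Without any 1 array its mean stayed between -4.002 and -3.78, with adjusted p in limma from 0.156 to 0.610.

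Of the integrin beta subunits, Itgb5 had the lower ratios. It had -1.95, -0.76, -3.37 and -0.40 on arrays 1 to 4, with a mean of -1.62 ± 1.34 (SD, n = 4 arrays), a 3.07-fold lower signal. All arrays were below 0, but arrays 1 and 3 were far lower than arrays 2 and 4. Its 3 probes all lie in the first rows. The probe at row 1540 had -2.54, -2.94, -3.57 and -1.005, below -1 on each array. At row 916 the values were -1.75, -0.71, -3.16 and -0.02, and at row 1660 they were -1.56 and 1.36 on arrays 1 and 2, no value on array 3 and -0.17 on array 4. The gene mean on array 3 thus rests on the 2 lower probes. With the probes measured on all 4 arrays the mean was -1.96. In limma the 95% interval of the mean was -3.05 to -0.19 with an adjusted p of 0.412 (unadjusted p = 0.0332). Without array 3 the mean was -0.88 (limma, adjusted p = 0.646), and without array 4 it was -2.36 (0.181).

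Itgb1 stayed close to 0 as a gene, but its probes did not share 1 sign. Its gene means were -0.11, -0.17, 0.05 and -0.25 on arrays 1 to 4, with a mean of -0.12 ± 0.12 (SD, n = 4 arrays). The 3 probes of the first rows had means of -0.39 (row 139), -0.48 (row 623) and -0.49 (row 814), and the last of these was below 0 on every array. Their mean was -0.45 ± 0.43. In the lower rows, the probe at row 8763 had 1.36, 0.86, 0.73 and 1.05, above 0 on every array, with a mean of 0.999 ± 0.276. A further probe, at row 19297, had 0.77, 0.30 and 0.62 on arrays 1 to 3 and -2.59 on array 4. The lower probes together had a mean of 0.39 ± 0.80, so the sign of the gene turned between the parts. The probe at row 7325 lies where the shift of rows is unclear and was not used. In limma the average of the Itgb1 probes had a 95% interval of -0.82 to 0.58 (adjusted p = 0.883). For that average it leaves room for a change of less than 2-fold in either direction. The interval does not cover the spread between the probes (SD 0.63), so it sets no limit for a single probe.

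Vcam1 encodes a membrane protein of the immunoglobulin superfamily that is bound by integrins with the alpha 4 chain. Its single probe had -1.02, -0.77, -3.71 and -1.36 on arrays 1 to 4, with a mean of -1.72 ± 1.35 (SD, n = 4 arrays), a 3.28-fold lower signal. All arrays were below 0, and array 3 lay 2.35 log2 units below the next lowest. The mean was -0.90 with the transfected sample in Cy5 and -2.53 in Cy3, a difference that limma's dye term did not call (unadjusted p = 0.13). In limma the 95% interval was -2.87 to -0.56 with an adjusted p of 0.368 (unadjusted p = 0.012). Without array 3 the mean was -1.13 (limma, adjusted p = 0.56). With arrays centred and scaled to a common spread it was -1.58 (limma, adjusted p = 0.309). Why array 3 was the lowest was not tested.

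Cd151 belongs to the tetraspanins, membrane proteins that gather integrins into clusters, and is known for binding laminin-binding integrins. Its single probe had 0.40, 0.23, 0.00 and 0.09 on arrays 1 to 4, with a mean of 0.18 ± 0.17 (SD, n = 4 arrays). All 4 values were at or just above 0. The 95% interval in limma was -0.52 to 0.87 (adjusted p = 0.809), so a rise or fall of 2-fold lies outside it.

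Ordered by their means, the genes ran from Fn1 over Vcam1, Itgb5 and Itgb1 to Cd151. Fn1 was lower than Vcam1 by 2.18 ± 1.61 (SD of the array differences) on average, on 3 of 4 arrays; on array 3 Vcam1 was the lower by 0.14. Vcam1 and Itgb5 differed by 0.10 ± 0.79, less than the spread between arrays. Itgb5 was below Itgb1 on 4 of 4 arrays, by 1.503 ± 1.46, and Itgb1 below Cd151 on 3 of 4, by 0.30 ± 0.24. Exact two-sided sign-flip tests of these 4 differences gave p = 0.25, 0.625, 0.125 and 0.25 (0.333, 0.625, 0.333 and 0.333 after Benjamini-Hochberg adjustment). The pairs were neighbours in the order of these same means, and with 4 arrays 0.125 is the smallest p such a test can give. The tests could thus not decide the order. Fn1, Itgb5 and Vcam1 were below 0 on all 4 arrays, as were 13.0% of all genes, and Cd151 was above 0 on all 4, as were 9.58%. Fn1 was below -1 on all 4 arrays, as were 59 of 6327 genes (0.933%). The genes had been picked with earlier results in view, so these shares are given for scale.

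**Figure D3:**
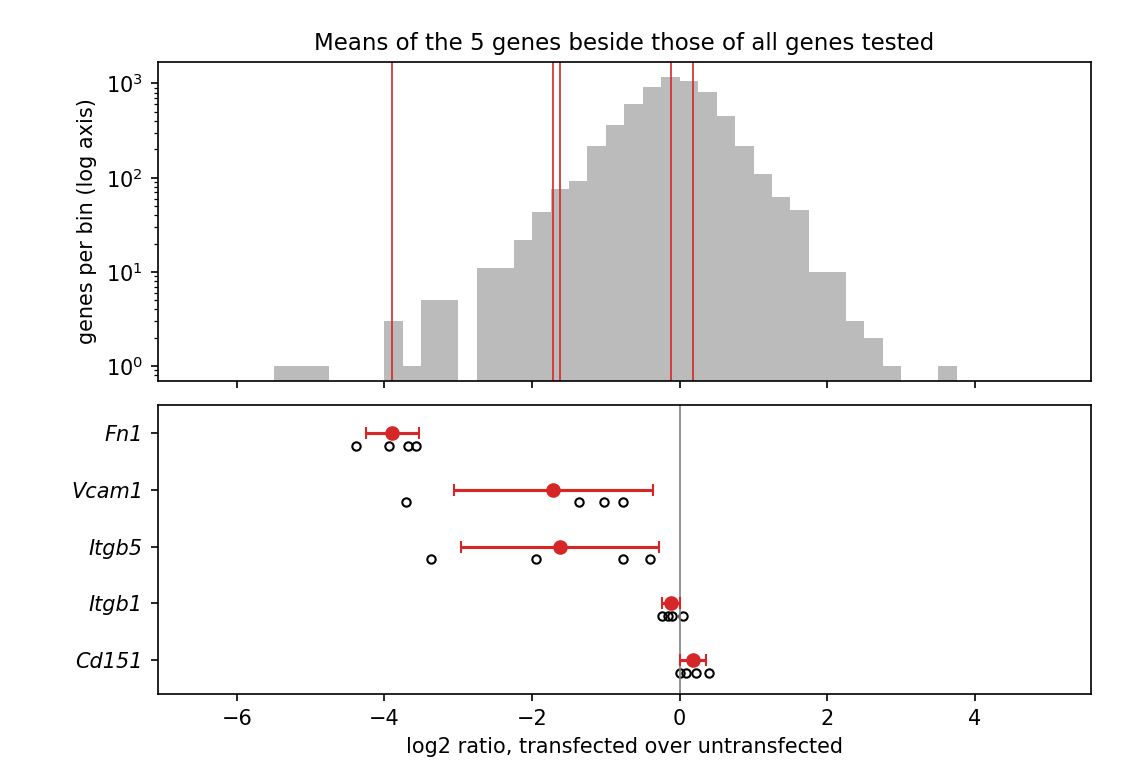
Top, number of genes (log axis) by mean log2 ratio (horizontal axis) for all 6327 genes measured on 4 arrays, with red lines at the 5 genes; bottom, mean ± SD over the 4 arrays (red) and each array (open circles) for the 5 genes. Fn1 stands at -3.89 in the thin lower tail, Vcam1 and Itgb5 at -1.72 and -1.62 with wide SDs, and Itgb1 and Cd151 near 0.

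Other genes of cell adhesion to the matrix were described from lists chosen by function, of which limma called 0 members. Across all genes tested the median of the gene means was -0.08, and 56.1% of the means were below 0. In the list of fibronectin and other integrin ligands of the matrix, 15 of 23 genes had a probe and 3 were measured on all 4 arrays. Besides Fn1, Mfge8, a secreted glycoprotein that binds alpha V integrins, had -1.14 ± 0.49 and was below 0 on every array. Lamb2 (a laminin chain) had -0.46 ± 0.66. The median of these 3 genes was -1.14, and without Fn1 it was -0.80.

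Of the integrin subunits few were measured. Of 18 alpha subunits 12 had a probe, and 1 of them had values on 4 arrays: Itga2b, the platelet subunit, with -0.64 ± 0.61. The alpha V subunit gene Itgav, whose product pairs with beta 5, had values on 2 arrays only, -2.26 on array 1 and -0.32 on array 3. Itga4, whose product binds Vcam1, had 1.11, -2.81 and 2.64 on arrays 1, 3 and 4, with no common sign. The probes of Itga3 and Itga6, which encode partners of Cd151, lay in rows that were left out, and no probe was named for Itga5. Of the beta subunits 3 of 8 were measured on 4 arrays, and besides Itgb1 and Itgb5 this was Itgb4, with -0.28 ± 0.74. The alpha partners of the fibronectin receptors were thus not measured well enough to set beside Fn1.

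Among 12 tetraspanins the median of the means was 0.08, and 6 were below 0. Tspan31 had -1.61 ± 0.72 and was below 0 on every array, while Tspan5 had 1.06 ± 0.71 and was above 0 on every array. Cd37, a leukocyte tetraspanin, had -0.51 ± 0.80. Cd81 (0.72 ± 0.92), Cd82 (0.45 ± 0.54) and Cd63 (-0.01 ± 0.09), the widely expressed relatives of Cd151, had values on both sides of 0. Cd151 lay near the middle of its family.

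Of the 9 immunoglobulin superfamily adhesion molecules measured, 8 had a mean below 0 (7 after centring each array on its median). Their median was -0.54 (-0.51 without Vcam1), against -0.08 for all genes. Vcam1 was the lowest. Bsg, which encodes basigin, had -0.86, -1.12, -0.83 and -0.48 on arrays 1 to 4, a mean of -0.82 ± 0.26, with all arrays close together. Ncam1, a neural adhesion molecule, had -0.54 ± 0.16 and was also below 0 on every array. Icam1 was measured on 3 arrays, at -1.24, -0.13 and -0.86. At an unadjusted p under 0.05 limma had 2 of the 9, Vcam1 and Bsg, below 0 and 0 above, where over all genes 7.49% were below 0 and 4.05% above at that threshold.

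The list of fibronectin co-receptors, cross-linking and turnover held genes that went both ways. Of 7 genes measured, 5 had a mean below 0 (4 after scaling the arrays to a common spread), and the median was -0.36. At an unadjusted p under 0.05 limma had 2 of the 7 below 0 and 2 above. Over all genes these shares were 7.49% and 4.05%. Lrp1 and Mrc2 were among them, and both differed by dye orientation. Lrp1 had a mean of 0.06 with the transfected sample in Cy5 and -1.92 in Cy3, and Mrc2 had 1.83 and -0.09. Tgm2, a transglutaminase that cross-links fibronectin and also acts as its co-receptor, had -0.80, -1.42, -1.17 and -2.31, a mean of -1.43 ± 0.65. Cd44, the hyaluronan receptor, had 0.49, 1.32, 1.52 and 2.15, a mean of 1.37 ± 0.68, above 0 on every array. Fap, a fibroblast surface protease, had -0.36 ± 0.25, below 0 on every array. Syndecans Sdc2 (-0.70 ± 1.13) and Sdc3 (-0.10 ± 0.48) had SDs above their means.

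Among 18 integrin adaptors and focal adhesion kinases the median was -0.23, with 11 means below 0. Crk, an adaptor downstream of focal adhesions, had -1.29 ± 0.72, Parvg (gamma-parvin) -1.18 ± 1.15 and Enah, an actin regulator at adhesions, -1.16 ± 0.90. Each was below 0 on every array and had an unadjusted p under 0.05 in limma. These were 3 of 18 genes at that p, where 7.49% of all genes had such a p with a mean below 0. In all, 4 of the 18 were below 0 on every array, against 13.0% of all genes. Parvg was lowest on array 3 (-2.88), as Itgb5 and Vcam1 were. Ilk (0.14 ± 0.80), the integrin-linked kinase, Bcar1 (-0.22 ± 0.32), a docking protein, and Vcl (-0.79 ± 1.66), vinculin, had no common sign. In these lists no gene other than Fn1 was past 2-fold in 1 direction on all 4 arrays, where 0.933% of all genes were lower and 0.316% higher by that rule.

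**Figure D4:**
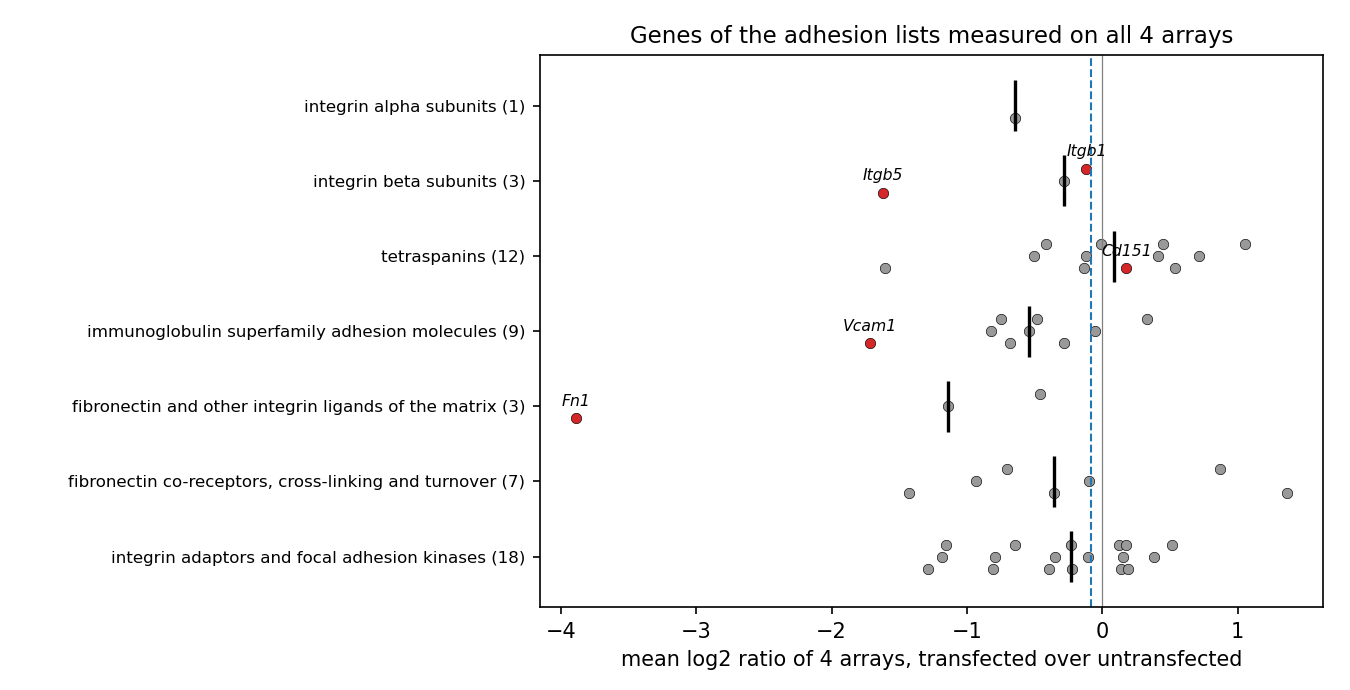
Mean log2 ratio over 4 arrays (horizontal axis) of each gene in 7 lists of adhesion genes (vertical axis, number measured in brackets); red points are Fn1, Itgb1, Itgb5, Vcam1 and Cd151, grey points the other genes, black bars the list medians and the blue dashed line the median of all genes tested (-0.08). Fn1 lies far below the rest, and the immunoglobulin superfamily molecules lie mostly below 0.

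Genes with array values most like those of each gene were found by Euclidean distance over the 4 arrays among all 6327 genes. Nearest to Fn1 were Col1a2 (type I collagen, mean -3.36 ± 0.69, distance 1.20), Fbln2 (fibulin 2, -3.27 ± 0.51, 1.54) and Sparc (a matrix glycoprotein, -3.14 ± 0.42, 1.89). Then came Prss23 (a serine protease, -3.03 ± 0.88, 2.01), Gstm1 (a glutathione transferase, -3.05 ± 0.72, 2.35) and Rgs2 (a regulator of G protein signalling, -3.90 ± 1.06, 2.37). Nearest to Itgb5 were Klf4 (distance 0.61), Col6a2 (0.78) and Parl (0.94). Nearest to Vcam1 were Col6a2 (0.74), Nmi (0.74) and Med13 (0.79). All of these neighbours of Itgb5 and Vcam1 were lowest on array 3, between -3.90 and -3.08. They were picked by distance over these same values, so the shared low on array 3 comes with the selection. Nearest to Itgb1 were Dnal4, Rps6kc1 and Rpl10a and nearest to Cd151 were Abcb9, Ppp1r27 and Mfsd4b1, all within a distance of 0.21 and with means between -0.17 and 0.18. The values are those of 1 comparison and its repeats, so likeness here is likeness of size.

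Markers of other cell types were set beside Vcam1, which endothelial cells and activated stroma express. Of 11 endothelial markers 5 were measured, with means from -1.03 to 0.45 and none with 1 sign on all 4 arrays. Of the leukocyte markers 3 of 12 were measured, with no common direction: Lyz2 had -1.17 ± 0.70 and was below 0 on every array, Cd68 had -0.22 ± 0.39, and Cd3e had 0.78 ± 2.38. Of the epithelial markers 3 of 11 were measured (median 0.35) and of the muscle markers 6 of 11 (median 0.11). Of the fibroblast markers 8 of 12 were measured, with a median of -0.06 (0.01 after centring). By mean, 4 of these 8 were below 0. Col1a1 (-4.91 ± 1.46), Col1a2 (-3.36 ± 0.69) and Fbln2 (-3.27 ± 0.51) were past 2-fold lower on all 4 arrays. These were 3 of 8, where 0.933% of all genes were lower by that rule. Past 2-fold higher were 0 of 8, where 0.316% of all genes were. The list was chosen with earlier results of these data known, so these shares are given for scale. Col3a1 (0.89 ± 1.36), Pdgfra (0.45 ± 1.85) and S100a4 (0.24 ± 0.80) had means above 0 and no common sign. Vim, the filament protein vimentin, had 0.66 ± 0.18 and was above 0 on every array. Both samples are labelled as NIH3T3, a fibroblast line, so these markers are given as description only, and the presence of other cells was not tested.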

How the data were processed

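The table deposited by the authors holds log2 ratios of both channels of 4 two-colour arrays; scale was read from the values, and the sources used here do not give image analysis, background correction, centring, normalization or ratio direction. Array medians were 0.139, 0.031, -0.178 and -0.229. Values beyond 15 in either direction (63 to 121 per array) were set to missing. Rows 1 to 6000 were used as they stand; in rows 8001 to 18000 arrays 2 to 4 were read 3 rows higher and from row 18301 on 4 rows higher; 2300 rows were left out. Probes were named from the platform annotation: 14030 had 1 symbol, 5 several and 6320 none. Of the named probes, 13994 matched RefSeq (GRCm38.p6) by gene identifier, with 0 symbols changed. Of all spots, 76.8% to 94.6% had a value; the number of arrays limits precision.

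Probes of a gene were averaged per array. Genes with 4 values were fitted in limma 3.58.1 (R 4.3.3; lmFit, eBayes) with a mean and a dye term, and p-values were adjusted over all 6327 genes by Benjamini-Hochberg. The fit was tested on simulated data. Genes named were the 5 with all probes; list genes past 2-fold on all 4 arrays, or the 3 furthest from 0 with 1 sign; and nearest genes by distance. Other list genes named (partners and relatives of the 5, and marker genes) were chosen after their values were seen. The genes, lists and row shifts were chosen with earlier results of these data known.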

Additional observations from a re-analysis of the deposited data

Results flagged for a closer look

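Of 29 sets of 4 array values checked (genes and single probes), 2 had 1 array far from the other 3; chance flags about 1 in 20 such sets. The Itgb1 probe at row 19297 lay at -2.59 on array 4 and between 0.30 and 0.77 on arrays 1 to 3 (gap over range 0.858). Cd37 lay at -1.69 on array 4 and between -0.16 and -0.01 on the other arrays (0.91).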

How the results depend on the processing

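All alternatives named here were planned. Limma's count of 0 called genes became 6 without the dye term and 6 probes with every probe on its own, 3 with arrays scaled to a common spread, 3 with the median of probes and 2 with probes measured on all 4 arrays only, and stayed at 0 under the other 11. Fn1 passed without the dye term (mean -3.89) and with the median of probes (-4.23); probe by probe its 5 probes had a mean of -3.89 and 2 of them passed (-4.69 and -4.64); in all 16 alternatives its mean lay between -4.23 and -3.07, the latter with all rows as deposited. Itgb1 turned to 0.39 in the realigned lower rows alone and was below 0 in the other 15. Itgb5 (-2.36 to -0.88), Vcam1 (-2.30 to -1.13) and Cd151 (0.14 to 0.26) kept their sign and missed the threshold in 15 alternatives each; they have no probe in the lower rows. Leaving out 1 array gave -4.002 to -3.78 for Fn1, -0.19 to -0.04 for Itgb1, and the ranges of Itgb5 and Vcam1 above. The genes past 2-fold on every array were 79 of 6327 in the main setting. They became 37 of 2238 in the first 6000 rows, 49 of 4534 in the lower rows and 37 of 6843 with all rows as deposited. When 1 array was left out they ran from 120 of 7174 to 190 of 6420. The rule asks less with 1 array fewer, so that count cannot fall by construction. The causes of the other changes were not tested. Each ratio already sets both lines side by side on 1 array, so no further pairing of samples was made.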
